A study of Mus musculus with 6 samples.

Results

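The 10 genes described here encode the machinery that decides whether a fibroblast leaves G1: the D-type cyclins Ccnd1, Ccnd2 and Ccnd3, their kinases Cdk4 and Cdk6, the retinoblastoma (pocket) proteins Rb1, Rbl1 and Rbl2, and the CDK inhibitors Cdkn1a (p21) and Cdkn1b (p27). They were picked by symbol from the 55401 genes of the expression table, and each symbol matched 1 row. All 10 passed the filter on low values and were tested. RNA came from NIH-3T3, an immortal line of mouse embryonic fibroblasts kept in medium with fetal bovine serum, and from a mutated derivative of it. The unmutated line (genotype WT) and the derivative (genotype Mutation, MU) gave 3 libraries each, all grown in culture with no other treatment named. The study's title concerns mitochondrial translation infidelity and cell cycle arrest, so the comparison asks how the G1 machinery differs in the mutated cells. Which gene was mutated is not stated in the labels, nor whether MU grew from 1 clone, so the mutation and any other difference between the lines cannot be told apart.

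Mitogens induce D-type cyclins, which activate CDK4 and CDK6. These kinases phosphorylate Rb and its relatives p107 (Rbl1) and p130 (Rbl2), which otherwise hold E2F transcription factors in check, and freed E2F switches on cyclin E and the genes of DNA replication. The proteins p21 and p27 inhibit CDK2 complexes and bind cyclin D-CDK4 complexes, whose assembly they assist. Cyclin D1, p21 and p27 are also set by protein degradation and Rb by phosphorylation, none of which mRNA levels show.

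Levels are in TPM, a share of all transcripts that is meant to correct for transcript length. How TPM was computed here is not given, so comparisons between genes are approximate. Sequencing depth is unknown from such values. Each library held between 13944 and 14146 genes at a TPM of at least 1. Deviations from the gene means depended on GC content most in WT replicate 2 (Spearman 0.33 across genes) and WT replicate 3 (−0.25), against −0.12 to 0.17 in the other libraries. The labelled cell type was checked against 9 fibroblast markers, all of which were tested, with a summed level of 8554 to 9842 TPM in WT and 11125 to 11633 TPM in MU. Summed markers of epithelium, leukocytes, endothelium, skeletal muscle and adipocytes never exceeded 3.22 TPM in a library. Among these, the endothelial cadherin gene Cdh5 was lower in MU, at 0.105 ± 0.0118 against 1.82 ± 0.861 TPM (limma adjusted p = 0.0186). Adgre1, Myod1 and Myog were listed at 0 in all libraries.

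Stretches of promoter from 3 members are shown because they hold matches to the recognition letters of MYC, E2F and p53, regulators of this pathway. Each is the 250 bases before a RefSeq start site (GRCm38.p6), written 5′ to 3′ on the gene's strand with the motif in capitals. In Cdk4 (chr10:127063285-127063534, plus strand) the capitals mark 4 copies of the E-box CACGTG, the letters bound by MYC and its relatives.
Cdk4: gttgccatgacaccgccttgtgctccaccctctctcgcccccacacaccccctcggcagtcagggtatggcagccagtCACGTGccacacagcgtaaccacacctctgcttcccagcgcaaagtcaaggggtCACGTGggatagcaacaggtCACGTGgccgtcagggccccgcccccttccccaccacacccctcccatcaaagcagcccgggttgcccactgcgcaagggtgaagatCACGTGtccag
In Rbl1 (chr2:157204535-157204784, minus strand) the capitals mark the E2F core TTCGCGC, 17 bases before the start.
Rbl1: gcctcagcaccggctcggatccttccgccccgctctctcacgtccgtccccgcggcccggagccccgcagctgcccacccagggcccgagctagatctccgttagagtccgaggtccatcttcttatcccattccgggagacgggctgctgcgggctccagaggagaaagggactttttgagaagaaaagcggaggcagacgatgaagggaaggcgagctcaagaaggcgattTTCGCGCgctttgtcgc
In Cdkn1a (chr17:29090729-29090978, plus strand) the capitals mark a p53 response element of 20 bases beginning 51 bases before the upstream one of its 2 start sites.
Cdkn1a: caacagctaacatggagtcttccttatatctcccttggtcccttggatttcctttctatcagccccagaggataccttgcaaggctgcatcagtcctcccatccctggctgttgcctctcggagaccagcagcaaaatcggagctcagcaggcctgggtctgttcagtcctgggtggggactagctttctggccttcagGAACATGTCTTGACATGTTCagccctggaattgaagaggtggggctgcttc

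Windows of 300 bases (to 50 after the start) were at hand for 7 of the 10 genes, 9 windows in all. They were searched on both strands for the E2F cores TTCCCGC and TTGGCGC and TTCGCGC and TTGCCGC, the cell cycle element TTTGAA, the AP-1 site TGACTCA, the GC box GGGCGG, the E-box and the p53 element. Of all 32851 windows in the RefSeq table, 9.57% held any of the 4 E2F cores, 7.15% an E-box and 0.067% a p53 element without spacer. That element was allowed at most 1 mismatch, and none at its C and G letters. At least 3 E-boxes occurred in 0.0883%. Cdk6 held 1 E-box and Rbl2 1 TTTGAA, found in 17.9% of windows. GC boxes lay in every member's window except that of Cdk6 and that at the upstream Cdkn1a start, and in 35.7% of all windows. No member's window held any other E2F core than TTCGCGC, or the AP-1 site. TTCGCGC alone occurred in 1.59% of all windows and the AP-1 site in 5.20%. These are matches of letters, and binding was not measured.

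Under the main settings the mRNAs of cyclin D1 and CDK6 were lower in the mutated cells and that of Rb higher. The other 7 genes, p21 and p27 among them, did not pass. Thus 3 of 10 members passed at a Benjamini-Hochberg adjusted p under 0.05 (limma), 1 higher and 2 lower. Of all 14209 tested genes 18.8% passed, 7.12% higher and 11.6% lower. The calls depended on the settings. Under 19 alternatives Ccnd1 passed in 6, Cdk6 in 16, Rb1 in 13 and Cdkn1a, not called here, in 4. None of these genes passed after centring on neighbouring genes, described below. Of all calls 37.9% were higher, a share that was 48.6% with mtDNA-encoded genes taken out of the scaling and 48.9% under quantile normalization. A difference is in log2(TPM + 1), MU minus WT, which understates the change of low genes, and its interval covers 95%. The median difference over the 10 members was 0.09, against −0.05 over all tested genes. Libraries of the groups did not overlap for 5 of the 10 members (Ccnd1, Cdk6, Rb1, Cdkn1a and Cdkn1b), where 39.2% of tested genes did not overlap. Without adjustment 4 members had a p under 0.05 (limma), against 33.4% of tested genes. Fewer cells holding an mRNA and less of it in each cell cannot be told apart in such bulk samples. The authors' deposited table, with its own test, has an adjusted p under 0.05 for 4 members (Ccnd1, Cdk6, Rb1 and Cdkn1a), against 21.1% of the 17009 genes with an adjusted p there, 9.42% higher and 11.6% lower.

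**Figure D1:**
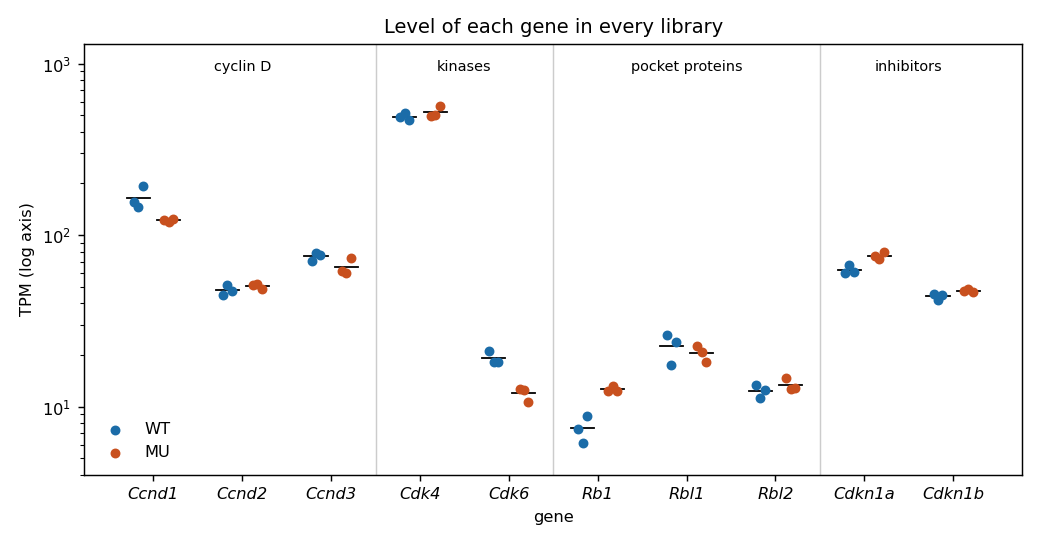
TPM (log axis) of each gene in the 3 WT and 3 MU libraries, as points, with the group mean as a bar. Groups are apart for Ccnd1, Cdk6, Rb1, Cdkn1a and Cdkn1b, and Cdk4 lies highest, at 470.5 to 567 TPM.

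Among the D-type cyclins, cyclin D1 stood highest and was the one that fell. Ccnd1 (ENSMUSG00000070348.5, chromosome 7, 144929931 to 144939925, GRCm38) was at 156, 147 and 192 TPM in WT replicates 1 to 3 and at 122, 119 and 124 TPM in MU replicates 1 to 3. Every MU library lay below every WT library, and WT replicate 3 stood above the other two WT libraries. The mean decreased by 26.1%, from 165 ± 24.1 to 122 ± 2.90 TPM (SD, n = 3), with a log2 difference of −0.42 (SE 0.12, interval −0.70 to −0.15, limma adjusted p = 0.0468). The call lay close to the threshold, held under 6 of 19 alternatives, and was lost without WT replicate 1 (adjusted p = 0.0932), MU replicate 1 (0.138), MU replicate 2 (0.155) or MU replicate 3 (0.124). Rescaling without the mtDNA-encoded mRNAs, which made up 8.48 to 12.3% of TPM in WT and 13.8 to 15.2% in MU, gave −0.36 (adjusted p = 0.101). The authors' deposited table gives −0.37 (adjusted p = 0.0195).

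Ccnd2 (ENSMUSG00000000184.12, chromosome 6, 127125162 to 127152193), which encodes cyclin D2, was at 44.7, 50.8 and 47.0 TPM in WT and at 51.1, 52.1 and 48.4 TPM in MU. The groups overlapped, and the log2 difference was 0.09 (interval −0.12 to 0.29, limma adjusted p = 0.524). Ccnd3 (ENSMUSG00000034165.16, chromosome 17, 47505051 to 47599691), which encodes cyclin D3, was at 70.7, 78.1 and 76.1 TPM in WT and at 61.9, 60.3 and 73.4 TPM in MU. Here MU replicate 3 reached into the WT range, and the log2 difference was −0.20 (interval −0.45 to 0.04, adjusted p = 0.219). Summed over the 3 cyclins, the WT level was 287 ± 24.4 TPM and the MU level 237 ± 7.88 TPM. Ccnd1 made up 57.2% ± 3.87 of that sum in WT and 51.3% ± 0.69 in MU, while Ccnd2 made up 16.6% ± 1.77 and 21.3% ± 1.497 (SD, n = 3). In every MU library the share of Ccnd1 lay below, and that of Ccnd2 above, every WT library. The nearest WT library was replicate 2, with 53.2% Ccnd1 against at most 51.9% in MU, and 18.4% Ccnd2 against at least 19.7%. The share of Ccnd3, 26.2% ± 2.11 and 27.4% ± 2.08, overlapped.

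Of the kinases, Cdk4 was by far the more abundant and Cdk6 fell. Cdk6 (ENSMUSG00000040274.11, chromosome 5, 3341485 to 3531008) was at 21.2, 18.3 and 18.2 TPM in WT and at 12.7, 12.5 and 10.7 TPM in MU. The groups did not overlap, and WT replicate 1 stood highest. The mean decreased by 37.7%, from 19.2 ± 1.71 to 11.95 ± 1.103 TPM, a log2 difference of −0.64 (SE 0.12, interval −0.92 to −0.37, limma adjusted p = 0.0126). It did not pass without MU replicate 2 (0.0505) or MU replicate 3 (0.0521). The authors' deposited table gives −0.61 (adjusted p = 1.78e-05).

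Cdk4 (ENSMUSG00000006728.12, chromosome 10, 127063534 to 127067920) was at 487, 513 and 470.5 TPM in WT and at 494, 503 and 567 TPM in MU. WT replicate 2 stood above MU replicates 1 and 2, and the log2 difference of 0.09 had an interval of −0.14 to 0.31 (limma adjusted p = 0.572). By mean TPM, Cdk4 ranked 268 of 14209 tested genes in WT and 237 in MU, while Cdk6 ranked 6436 and 7950. Cdk6 took 3.77% ± 0.37 of the summed Cdk4 and Cdk6 level in WT and 2.26% ± 0.357 in MU, and the summed level was 509 ± 21.6 and 533 ± 38.8 TPM. Cdk4 overlaps by 641 bases with Tspan31 on the other strand, which rose from 111 ± 3.23 to 184 ± 6.45 TPM (limma adjusted p = 0.0021). Ccnd3 overlaps by 361 bases with Bysl, which fell from 25.2 ± 1.06 to 16.3 ± 0.388 TPM (adjusted p = 0.0059). The kit marks the strand, but no source used here gives the strand setting of the counting, so reads of such pairs may not have been told apart.

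The pocket proteins split, with Rb1 higher in the mutated cells and no call for its relatives. Rb1 (ENSMUSG00000022105.6, chromosome 14, 73183673 to 73325822) was at 7.40, 6.12 and 8.84 TPM in WT and at 12.3, 13.1 and 12.3 TPM in MU. All MU libraries lay above all WT libraries, and the MU libraries lay closer together. The mean rose 1.69-fold, from 7.45 ± 1.36 to 12.6 ± 0.461 TPM, a log2 difference of 0.70 (SE 0.14, interval 0.35 to 1.04, limma adjusted p = 0.0194). It did not pass without WT replicate 1 (0.0635), MU replicate 1 (0.07), MU replicate 2 (0.0817) or MU replicate 3 (0.0686). The authors' deposited table gives 0.77 (adjusted p = 1.33e-05). Rcbtb2, on the other strand, overlaps Rb1 by 24171 bases of gene span, introns included, and was at 33.7 ± 10.2 and 57.9 ± 6.89 TPM (limma adjusted p = 0.0546). The longest aligned stretch between transcripts of Rb1 and Rcbtb2 was 383 bases. Lpar6, also on the other strand and inside Rb1, with a longest aligned stretch of 214 bases, was at 1.84 ± 0.289 and 2.77 ± 0.0809 TPM (0.125). Their part in the level of Rb1 was not tested.

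Rbl1 (ENSMUSG00000027641.13, chromosome 2, 157145893 to 157204534), which encodes p107 and is itself a known E2F target, was at 26.1, 17.4 and 23.9 TPM in WT and at 22.5, 20.7 and 18.1 TPM in MU. WT replicate 2 lay below all MU libraries and the other WT libraries above them. The log2 difference of −0.12 had the widest interval of the 10 members, −0.52 to 0.28 (limma adjusted p = 0.679), and was −0.28 without WT replicate 2 (adjusted p = 0.14). Rbl2 (ENSMUSG00000031666.15, chromosome 8, 91070057 to 91123844), which encodes p130, the pocket protein known to prevail in resting cells, was at 13.4, 11.2 and 12.5 TPM in WT. In MU it was at 14.6, 12.6 and 12.9 TPM. The groups overlapped, with a log2 difference of 0.10 (interval −0.17 to 0.37, limma adjusted p = 0.577).

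Rb1 thus made up 17.7% ± 1.88 of the summed pocket protein level in WT and 27.2% ± 1.98 in MU, and Rbl1 52.8% ± 2.77 and 44.0% ± 1.95. Neither share overlapped between the groups, while that of Rbl2 did, at 29.5% ± 2.47 and 28.8% ± 1.47. The WT sum was 42.3 ± 6.58 TPM and the MU sum 46.3 ± 3.02 TPM. Ordered by mean TPM in WT, the members ran Cdk4, Ccnd1, Ccnd3, Cdkn1a, Ccnd2, Cdkn1b, Rbl1, Cdk6, Rbl2 and Rb1, and neighbours in that order overlapped only for Ccnd2 with Cdkn1b and Rbl1 with Cdk6. In MU the order ran Cdk4, Ccnd1, Cdkn1a, Ccnd3, Ccnd2, Cdkn1b, Rbl1, Rbl2, Rb1 and Cdk6, with overlap of Cdkn1a with Ccnd3, Rbl2 with Rb1 and Rb1 with Cdk6. Rb1 was thus the lowest in WT, clear of Rbl2, and Cdk6 the lowest in MU.

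**Figure D2:**
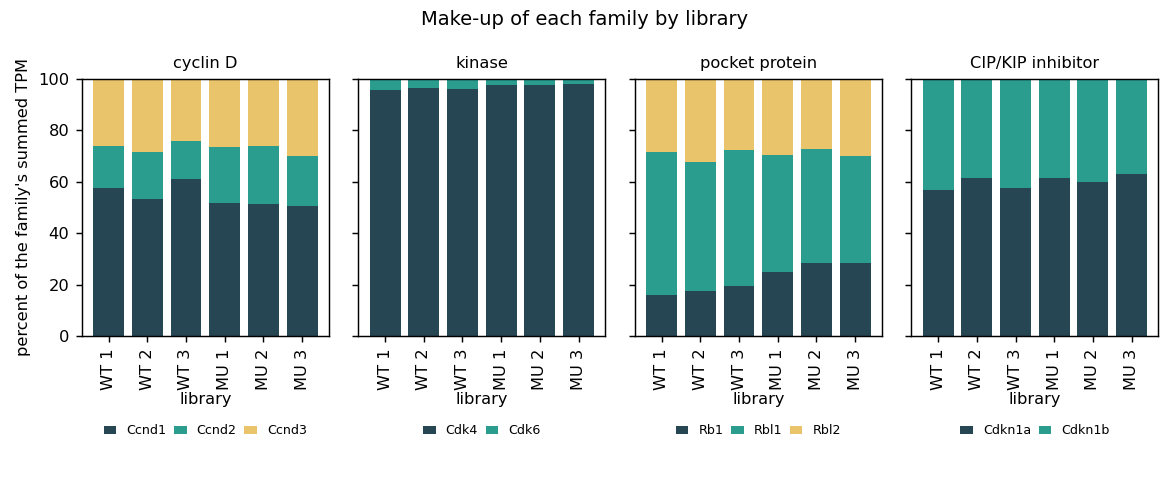
Percent of each family's summed TPM taken by each gene, for each library. The Rb1 part of the pocket protein bars is 15.8 to 19.6% in WT and 24.9 to 28.4% in MU, and the Cdk6 part of the kinase bars 3.44 to 4.17% and 1.85 to 2.51%.

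Neither CDK inhibitor passed over all genes. Cdkn1a (ENSMUSG00000023067.14, chromosome 17, 29090976 to 29100727), which carries the p53 element printed above, was at 59.8, 66.5 and 60.7 TPM in WT and at 75.6, 72.2 and 79.4 TPM in MU. Every MU library lay above every WT library, with WT replicate 2 the closest. The mean of MU was 21.5% higher, and the log2 difference was 0.28 (SE 0.08, interval 0.08 to 0.48), with a limma adjusted p of 0.0643. It passed without WT replicate 2 (adjusted p = 0.0272), when mtDNA-encoded genes were taken out of the scaling (0.0323), under quantile normalization (0.0288) and with GC content and length corrected for (0.0161). In the authors' deposited table its value is 0.32 (adjusted p = 0.0478).

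Cdkn1b (ENSMUSG00000003031.14, chromosome 6, 134920401 to 134925513) was at 45.2, 41.8 and 44.8 TPM in WT and at 47.0, 48.2 and 46.5 TPM in MU. The groups did not overlap, yet the log2 difference was 0.10 (interval −0.08 to 0.29, limma adjusted p = 0.409). The 2 inhibitors together summed to 106 ± 1.77 TPM (WT) and 123 ± 2.78 TPM (MU).

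**Figure D3:**
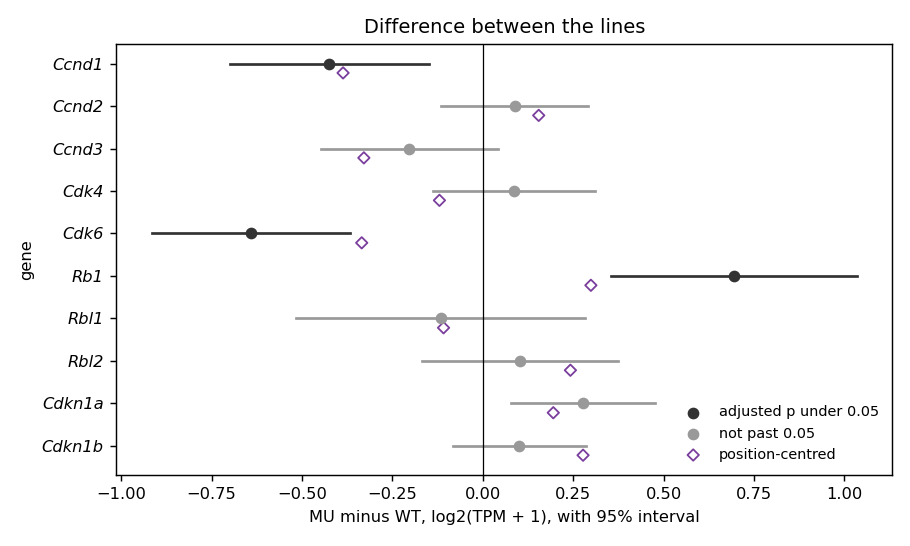
Difference between MU and WT in log2(TPM + 1) for each gene (circles, with 95% intervals from limma; dark where the adjusted p is under 0.05), and the same after centring on neighbouring genes (diamonds). The diamonds of Cdk6 and Rb1 lie nearer 0, at −0.33 and 0.30, and that of Cdk4 lies below 0, at −0.12.

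The difference of Cdk6 and that of Rb1 were shared in direction by the genes around them. For each member, up to 20 tested protein-coding genes on each side were taken. Around Rb1, 30 of 40 neighbours had a higher mean in MU, 13 passed as higher and 1 as lower, and their median log2 difference was 0.34. These neighbours spanned 7.95 Mb, and chromosome 14 as a whole had a median of 0.00 over 387 genes. Cdk6 is near the start of chromosome 5 and had 20 neighbours, all on one side. Their mean was lower in MU for 16 of them, 7 passed as lower and 0 as higher (limma), and their median was −0.36. For chromosome 5 the share of genes with a lower mean was 70.5% of 708, against 57.7% of all protein-coding genes tested. What these stretches contribute to Cdk6 and Rb1 was not tested beyond the centring below.

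When the neighbours' median was subtracted (taken relative to the median of all tested genes), the log2 difference of Rb1 was 0.30 (limma adjusted p = 0.22) and that of Cdk6 −0.33 (0.0979). The direction of both remained, and neither passed. Only 2 of 20 neighbours lay below Cdk6, and 34 of 40 lay below Rb1. Ccnd1 differed, since its 22 neighbours had a median of −0.09, with 3 of them below it. Of these neighbours 20 lay before Ccnd1 and 2 after, so the median rests almost on 1 side. Centring left Ccnd1 a log2 difference of −0.39 (limma adjusted p = 0.0701).

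None of the 7 uncalled members passed after centring either (limma). Ccnd3 had the largest centred log2 difference among them, −0.33 (adjusted p = 0.0799), with 7 of its 40 neighbours below it and a neighbour median of 0.07. Chromosome 8, home of Rbl2, had the lower mean in MU for 80.4% of its 622 genes. Rbl2 was above 34 of its 40 neighbours, whose median was −0.19. After centring its log2 difference was 0.24 (limma adjusted p = 0.201). Cdkn1b, above 26 of its 40 neighbours, had a neighbour median of −0.23 and a centred log2 difference of 0.28 (0.0568). Cdk4 lay above 17 of its 40 neighbours, whose median was 0.15, and centring turned its small difference from 0.09 to −0.12 (0.439). Neighbours of Cdkn1a had a median of 0.03 and left it at 0.20 (0.171).

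**Figure D4:**
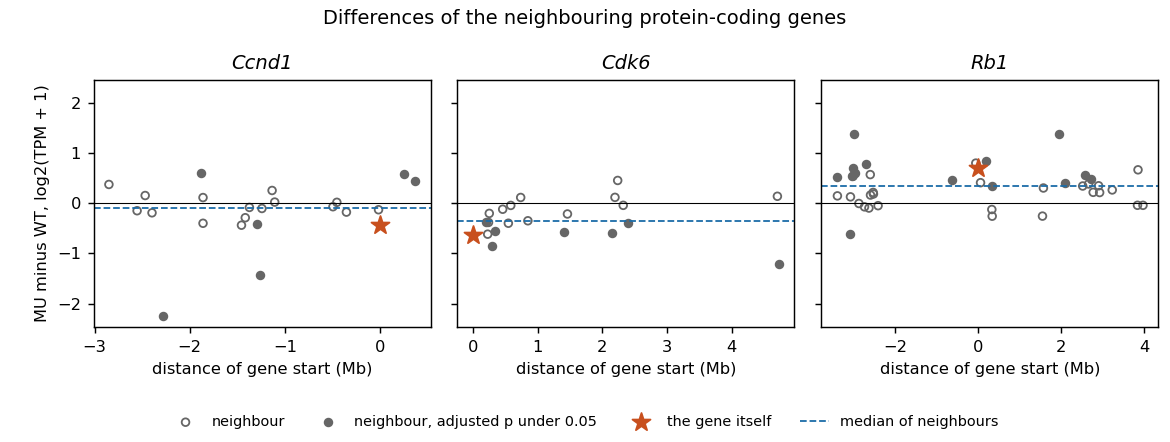
Log2 difference between MU and WT of the tested protein-coding genes around Ccnd1, Cdk6 and Rb1, by distance of gene starts in Mb (filled where the adjusted p is under 0.05), with the gene itself as a star and the neighbours' median as a dashed line. The dashed line is at −0.09, −0.36 and 0.34.

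Of the other CDK inhibitors, both measurable INK4 genes had lower means in MU without a call. Cdkn2a and Cdkn2b were listed at 0 in all 6 libraries, and NIH-3T3 is known to have lost this locus. Cdkn2c (p18), which inhibits CDK4 and CDK6, averaged 105 ± 5.33 TPM in WT against 89.2 ± 3.35 TPM in MU (log2 difference −0.24, limma adjusted p = 0.0857), and Cdkn2d (p19) at 16.4 ± 1.08 and 13.8 ± 0.0777 TPM (adjusted p = 0.135). Cdkn1c (p57), too low to be tested, reached at most 0.354 TPM in WT and was listed at 0 throughout MU.

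Downstream of Rb, cyclin E1 and most E2F target genes fell. Ccne1, whose cyclin activates CDK2, was at 44.7, 42.8 and 51.4 TPM in WT and at 23.8, 25.7 and 21.5 TPM in MU, with no overlap and a log2 difference of −0.94 (SE 0.11, limma adjusted p = 0.00316). Cdc25a, a phosphatase that activates CDK2, fell from 29.6 ± 2.93 to 19.7 ± 2.24 TPM. These were 2 of the 5 genes of this group, and 0 rose. That is 40%, against 11.6% of all tested genes as lower and 18.8% in either direction. The count of falls was 1 without WT replicate 1, MU replicate 2 or MU replicate 3. Over all tested genes, falls then numbered 801, 644 and 738, against 1655 with all libraries.

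Of 9 tested E2F and DP factors, 5 fell and 0 rose, with a median log2 difference of −0.57. That is 55.6%, against 11.6% of all tested genes as lower and 18.8% in either direction. Tfdp1, the main dimer partner of E2Fs, fell from 213 ± 21.8 to 107 ± 4.23 TPM, the repressor E2f4 from 108 ± 10.7 to 68.1 ± 2.82 TPM and E2f8, an atypical repressor, from 19.7 ± 4.12 to 10.0 ± 0.372 TPM. Tfdp1 and E2f4 lie on chromosome 8, and the same 5 genes passed as lower after position centring, when Tfdp2 also passed as higher. Falls numbered 3 without WT replicate 1, MU replicate 2 or MU replicate 3, and 2 without MU replicate 1. All tested genes gave 801, 644, 738 and 705 falls in that order, against 1655 with all libraries.

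Among 28 E2F target genes of G1/S and DNA replication, 18 fell and 0 rose (median log2 difference −0.44). That is 64.3%, against 11.6% of all tested genes as lower and 18.8% in either direction. Rrm2, a subunit of ribonucleotide reductase, was at 162, 143 and 165 TPM in WT and at 74.3, 78.7 and 69.9 TPM in MU (log2 difference −1.06, SE 0.09, limma adjusted p = 0.00124). Mcm5, a subunit of the replicative helicase, fell from 148 ± 7.51 to 81.1 ± 2.495 TPM, and Tk1, thymidine kinase, from 203 ± 13.9 to 118 ± 4.09 TPM. Of the 18, 13 also passed as lower after position centring. Leaving out WT replicate 1 left 9 falls, and leaving out MU replicates 1, 2 and 3 in turn left 7, 8 and 10. In the same order, falls over all tested genes numbered 801, 705, 644 and 738, against 1655 with all libraries.

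Partners of the pocket proteins were called at shares near or above that of all tested genes. The MuvB core joins p107 or p130 in the repressive DREAM complex, and B-Myb (Mybl2) takes their place on it to form an activating complex. None of the 5 core genes (Lin9, Lin37, Lin52, Lin54 and Rbbp4) passed, with log2 differences from −0.39 to 0.29 and adjusted p of 0.104 to 0.953 (limma). Mybl2, also counted among the E2F targets, passed, falling from 21.8 ± 4.70 to 11.3 ± 1.55 TPM. That made 1 of 6 genes in this list, and 0 without WT replicate 1, MU replicate 1 or MU replicate 2. The share was 16.7%, against 18.8% of all tested genes in either direction and 11.6% as lower. Of 11 chromatin corepressors, 3 fell, or 27.3%, against 11.6% of all tested genes as lower and 18.8% in either direction. These were Rbbp7, from 271 ± 33.9 to 186 ± 1.57 TPM, Hdac3, from 79.9 ± 5.59 to 59.5 ± 3.44 TPM, and Suv39h1, from 31.7 ± 2.45 to 24.5 ± 1.32 TPM. They lie on chromosome X (Rbbp7 and Suv39h1) and 18, and 0 passed after position centring (limma), or without WT replicate 1 or any 1 MU library. Falls over all tested genes numbered 1225 after position centring, against 1655 under the main settings. They numbered 801 without WT replicate 1, and 705, 644 and 738 without MU replicates 1, 2 and 3 in turn.

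Regulators of the kinases and of protein turnover were called about as often as all tested genes. Mnat1, a subunit of the CDK-activating kinase, was the 1 of 6 genes for CDK activation and folding that passed, and it rose from 26.04 ± 1.60 to 44.2 ± 2.64 TPM. The share was 16.7%, against 18.8% of all tested genes in either direction and 7.12% as higher. Of 18 genes in a list for protein turnover, drawn up around cyclin D, p21 and p27, 3 fell and 0 rose, with a median log2 difference of −0.04. That is 16.7%, against 18.8% of all tested genes in either direction and 11.6% as lower. Cks1b, a cofactor of SCF-SKP2 in p27 degradation, fell from 324 ± 31.7 to 209 ± 7.01 TPM. Fbxo31, an F-box protein reported to act on cyclin D1, fell from 23.0 ± 2.26 to 14.0 ± 1.48 TPM. Fbxw8, likewise reported for cyclin D1, went from 37.8 ± 1.08 to 29.1 ± 0.741 TPM. Both lie among lowered neighbours (medians −0.32 and −0.41) and did not pass after position centring. In this list 1 gene fell without MU replicate 1 or MU replicate 3, and 5 fell without WT replicate 2. Over all tested genes, falls then numbered 705, 738 and 2238, against 1655 with all libraries.

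Of 10 mitogen-responsive factors, 2 fell and 0 rose, a share of 20% against 18.8% of all tested genes in either direction and 11.6% as lower. Both belong to the AP-1 family. Jun was at 113, 121 and 104 TPM in WT and at 54.6, 57.5 and 59.3 TPM in MU (log2 difference −0.97, SE 0.09, limma adjusted p = 0.00138). Fosl1 was at 73.4, 96.4 and 47.2 TPM in WT and at 23.0, 19.8 and 20.6 TPM in MU (−1.67, SE 0.24, adjusted p = 0.00632). Neither gene's groups overlapped, and this count was the same without each library except WT replicate 2, where it was 3. Of 11 regulators of the p21 and p27 genes, 1 passed (9.09%). This was Klf4, at 39.6, 61.6 and 34.1 TPM in WT and 21.4, 22.4 and 26.2 TPM in MU (limma adjusted p = 0.0351). That 1 call was lost without WT replicate 1 or any 1 MU library, and 3 genes passed as lower without WT replicate 2. Over all tested genes, 1655 fell with all libraries, 801 without WT replicate 1 and 2238 without WT replicate 2. Without MU replicates 1, 2 and 3 in turn, 705, 644 and 738 fell.

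Beside Cdkn1a, 4 of 19 tested p53 target genes rose and 0 fell, with a median log2 difference of 0.26. This is 21.1% of them, against 18.8% of all tested genes in either direction and 7.12% as higher. Plk2, a kinase, rose from 65.0 ± 4.69 to 139.96 ± 2.04 TPM, Trp53inp1 from 5.95 ± 0.53 to 17.8 ± 2.12 TPM and Ccng1 (cyclin G1) from 85.0 ± 17.6 to 138 ± 10.2 TPM. After position centring Plk2 and Trp53inp1 still passed as higher, and Ccng1 did not (log2 difference 0.48, limma adjusted p = 0.1001). The count of rises was 2 without WT replicate 1 or any 1 MU library and 6 without WT replicate 2. Over all tested genes, 1012 rose with all libraries, 629 without WT replicate 1 and 1153 without WT replicate 2. Without MU replicates 1, 2 and 3 in turn, 453, 427 and 465 rose. Without WT replicate 2 and without WT replicate 3, 1 and 2 targets passed as lower.

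**Figure D5:**
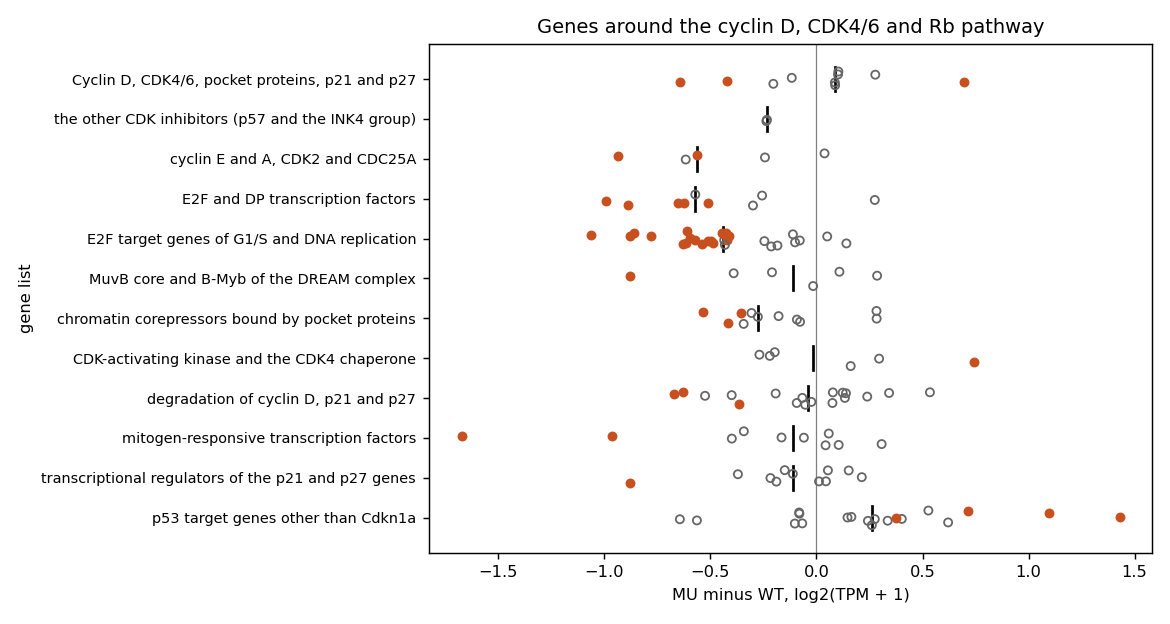
Log2 difference between MU and WT of each tested gene in 12 lists, with list medians as black bars and genes with an adjusted p under 0.05 filled. Filled points lie left of 0 for E2F factors and E2F targets, and right of 0 for p53 targets.

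Genes with the pattern most like each called member were sought among 11348 protein-coding genes, by Pearson's r of log2(TPM + 1) over the 6 libraries. The closest to Ccnd1 were Ctsb and Zfp236 (both r = 0.996), to Cdk6 Plekha8 and Sh3rf1 (both 0.996) and to Rb1 Ube2b (0.9996) and Tnfrsf10b (0.997). With 6 libraries in 2 groups such values are common, and 229, 439 and 276 genes exceeded 0.95 for Ccnd1, Cdk6 and Rb1. Tnfrsf10b is also among the chromosomal neighbours of Rb1 described above (log2 difference 0.52, limma adjusted p = 0.0241).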

How the data were processed

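Libraries of poly(A) RNA came from a stranded kit, per the labels' protocols. The submitters' processing notes list the mm10 build and, without roles, DESeq2 1.20.0, featureCounts 1.5.0-p3, HISAT2 2.05.0 and FastQC 0.11.4. The authors deposited log2(TPM + 1) per gene and library, per the file headers and values, and a table of group mean TPM, log2 fold changes and p-values. Depth cannot be recovered from TPM, and no source used here gives the annotation, the strand setting or how TPM was computed. Values were returned to TPM, the 14209 genes reaching a TPM of 1 in 3 or more of 6 libraries were kept, and log2(TPM + 1) was tested with limma 3.58.1 in R 4.3.3 (intensity trend, two-sided, no covariate, Benjamini-Hochberg adjustment). The test was also run on simulated data drawn with independent noise for each gene and library. Such data lack the GC dependence seen in these libraries, so that run does not bear on it.

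Of 55401 genes, 55141 matched GENCODE M21 (GRCm38, the assembly of mm10) by identifier. Members and lists were chosen with earlier results of these data known, so their counts are no independent support. In each list the 3 higher and 3 lower calls with the smallest adjusted p are named. Overlapping genes, Cdkn1c, Cdkn2a, Cdkn2b, Cdkn2d, Tfdp2, Cdh5, the MuvB core genes and the markers at 0 were named after their values were seen, and 4 of the motifs (TTCGCGC and TTGCCGC, the E-box and the p53 element) after the promoters were read. Whether replicates are separate cultures is not labelled, so p-values cover the spread of these samples only, and that may be technical.

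Alternatives were other scalings (mtDNA-encoded genes taken out, median of ratios, quantile), a pseudocount of 0.1 or 5, no filter or a minimum of 5 TPM, limma without trend or with robust estimation, a replicate block, a loess correction for GC content and exon length (span 0.3), centring on up to 20 neighbours a side, and leaving out each library.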

Additional observations from a re-analysis of the deposited data

How the results depend on the processing

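Of the 190 comparisons of a member with its value under an alternative, 163 kept direction and side of the threshold. Most of these came from members that were not called. Of the called members, Ccnd1 kept its call under 6 of 19 alternatives, Cdk6 under 16 and Rb1 under 13. Only the difference of Cdk4 changed sign, to −0.12 after position centring. The causes of these changes were not tested. Ccnd1 lost its call when mtDNA-encoded genes were taken out of the scaling (−0.36) and under median-of-ratios scaling (−0.37), quantile normalization (−0.30), no filter (−0.42), no trend (−0.42), the GC and length correction (−0.40) or position centring (−0.39). Position centring also ended the calls of Cdk6 (−0.33) and Rb1 (0.30). Cdkn1a passed with that first rescaling (0.34), with quantile normalization (0.39) and with the GC and length correction (0.30). Leaving out 1 library gave −0.50 to −0.31 for Ccnd1, −0.68 to −0.57 for Cdk6, 0.58 to 0.81 for Rb1 and 0.24 to 0.32 for Cdkn1a.

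Same-numbered WT and MU libraries did not deviate together (correlations 0.0495, 0.0154 and −0.0744). The labels do not pair them, and such correlations cannot show whether they were grown or prepared in pairs. With the replicate block, 456 genes passed as higher and 637 as lower, against 1012 and 1655, and Ccnd1 (−0.42, adjusted p = 0.0943, limma) and Rb1 (0.70, adjusted p = 0.0692) did not pass. The block with the GC and length correction gave −0.40 for Ccnd1 and 1 fall in the turnover list. Under the block falls numbered 6 for E2F targets, 3 for E2F and DP factors and 1 each for the CDK2 group and turnover. They numbered 0 for MuvB with B-Myb, corepressors and p21/p27 regulators, and 2 p53 targets rose.

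Over all genes, leaving out 1 library gave 427 to 1153 higher and 644 to 2238 lower. Falls then ranged from 7 to 19 for E2F targets, 2 to 6 for E2F and DP factors and 1 to 3 for the CDK2 group. They ranged from 0 to 2 for MuvB with B-Myb, 0 to 4 for corepressors and 0 to 1 for CDK activation. For turnover the range was 1 to 5 and for p21/p27 regulators 0 to 3. Falls of p53 targets ranged from 0 to 2, and their rises from 2 to 6. Among E2F and DP factors 3 fell with median-of-ratios scaling or no filter, and 1 rose after position centring. MuvB with B-Myb had 0 falls with no filter and 2 with the GC and length correction. Corepressors had 1 after rescaling or quantile normalization and 0 after position centring, turnover 1 after position centring. The p21/p27 regulators had 0 falls with median-of-ratios, quantile, no filter or position centring. Of p53 targets, 2 rose with no filter, and 1 fell at a TPM minimum of 5 or with the GC and length correction. The share of calls that were higher was 37.9%, and 48.6% after rescaling, 46.2% with median of ratios and 48.9% with quantile normalization.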
